A study of Mus musculus with 14 samples.

Results

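The genes described here are 5 subunit genes of the transcription factor NF-κB (Nfkb1, Nfkb2, Rel, Rela and Relb) and 5 genes of its IκB and feedback proteins (Nfkbia, Nfkbie, Nfkbiz, Bcl3 and Tnfaip3). They were followed across 6 groups of mouse hematopoietic progenitor cells. Members were found by the gene symbol that the array platform gives each probe set, and only probe sets with a single symbol were considered. Of the 10 listed genes, 9 had such a probe set, 1 each, among 22206 probe sets tested (19505 distinct gene symbols), and Nfkb1 was not analysed here. The cells were lineage-negative bone marrow cells, isolated on magnetic columns, grown in culture and then transduced with a retrovirus. The donor mice were wild type for Polg (WT, wt/wt), heterozygous (Het, wt/mut) or homozygous (Hom, mut/mut) for a mutant allele of this gene of the polymerase that copies mitochondrial DNA. The virus was MSCV-IRES-YFP, which carries a fluorescent marker alone (Ctrl), or MSCV-NMyc-IRES-YFP, which adds N-Myc (NMyc). All 14 cultures had thus been transduced and carried the marker, and N-Myc was made from a retroviral vector, not from its own gene. The groups held 3 arrays for WT-Ctrl and for Het-Ctrl and 2 for Hom-Ctrl and for each NMyc group, which the labels call biological replicates; their small number limits the precision.

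NF-κB is a dimer of Rel-family proteins. IκB proteins hold it in the cytoplasm until a kinase complex, switched on by receptors for cytokines and microbial products, marks them for destruction and the dimer enters the nucleus. Among the genes it then switches on are several of its own subunits and brakes: Nfkbia encodes IκBα, the main IκB protein, Nfkbie encodes IκBε, and Tnfaip3 encodes A20, a ubiquitin-editing enzyme that shuts down the signal upstream. Nfkbiz (IκBζ) and Bcl3 encode atypical IκB proteins that work in the nucleus with NF-κB bound to DNA. They are counted here with the IκB genes by protein family, and not as brakes. In blood-forming cells the pathway is best known from the inflammatory response of myeloid cells.

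The promoters of several of these genes hold sequences of the kind NF-κB binds, and they are printed here so that the measurements can be read beside them. RefSeq promoter windows (assembly GRCm38.p6) were at hand for 7 of the 9 genes with a probe set, in 10 windows. Nfkb1 was not looked up. In the 250 bases before the start, 5 of the 7 genes held at least 1 match to the κB decamer consensus on either strand: Nfkbia, Nfkbie, Tnfaip3, Rel and Nfkb2. Over all 32851 promoter windows of that length, 7.25% held one. Genes with several windows had more chances of a match, and 7 of the 10 windows held one. The E-box CACGTG, the sequence that Myc proteins bind with their partner Max, lay in 6.02% of all windows and in 1 of the members' genes, Tnfaip3, where it did not overlap a κB match. Each line below gives the last 140 bases before the start, 5′ to 3′ on the strand of the gene, with κB matches in capitals, and in Tnfaip3 also the E-box.
Nfkbia, chr12:55492648-55492787, minus strand: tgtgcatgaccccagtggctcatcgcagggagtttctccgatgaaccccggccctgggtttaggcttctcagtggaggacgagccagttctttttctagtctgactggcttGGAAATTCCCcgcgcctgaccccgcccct
Tnfaip3, chr10:19015411-19015550, minus strand: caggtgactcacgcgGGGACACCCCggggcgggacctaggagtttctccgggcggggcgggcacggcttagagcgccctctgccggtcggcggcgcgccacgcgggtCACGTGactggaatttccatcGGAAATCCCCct
Nfkbie, chr17:45555560-45555699, plus strand: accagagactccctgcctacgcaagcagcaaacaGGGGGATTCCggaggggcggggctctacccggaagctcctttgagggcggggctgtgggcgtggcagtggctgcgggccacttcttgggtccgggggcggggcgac
Rel, chr11:23770970-23771109, minus strand: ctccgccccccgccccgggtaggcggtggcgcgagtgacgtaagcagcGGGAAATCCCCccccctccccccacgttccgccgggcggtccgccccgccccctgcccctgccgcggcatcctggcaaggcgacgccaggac
Nfkb2, chr19:46304597-46304736, plus strand: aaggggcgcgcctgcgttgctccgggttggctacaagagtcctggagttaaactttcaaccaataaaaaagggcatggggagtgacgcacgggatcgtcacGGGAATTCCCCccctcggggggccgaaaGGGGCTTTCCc
Rela, chr19:5637401-5637540, plus strand: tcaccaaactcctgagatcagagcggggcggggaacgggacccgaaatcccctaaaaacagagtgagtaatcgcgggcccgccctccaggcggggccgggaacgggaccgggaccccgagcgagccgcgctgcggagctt

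Capitals mark matched letters and do not show that a protein binds there. In Nfkbia the match began 29 bases before the start. In Tnfaip3 the matches began 125 and 12 bases before it, with the E-box at 33. Rel held 2 overlapping matches that began at 92 and 91 bases. In Nfkb2 this window held 3, of which 2 overlapped. The 250-base windows of Rela and Bcl3 held no match of these letters.

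The level of Mycn, the gene carried by the NMyc vector, was 12.15 to 12.38 on the 6 NMyc arrays and 7.43 to 7.76 on 7 of the 8 Ctrl arrays (log2 values, as is every array value below). Hom-Ctrl replicate 1 stood apart at 9.77, so the members' differences that rest most on the Hom-Ctrl group are also given without it. The medians of the tested probe sets lay within 0.084 of each other across arrays. The 95th percentile of the array's negative control sets was 7.4 to 8.0 on the Ctrl arrays and 7.15 to 7.6 on the NMyc arrays. Relb and Nfkbie were below it on all 14 arrays, and Nfkb2 was above it on 5, so these 3 genes were read close to background. Nfkbiz was above it on 7 arrays, all Ctrl, and Tnfaip3 on 9, of which 8 were Ctrl. The part of this background difference between the vectors in the falls of dim members such as Relb, Nfkbie and Nfkb2 was not tested.

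With N-Myc, the 3 genes Nfkbia, Nfkbiz and Tnfaip3 fell by 1.34 to 1.81 on the log2 scale, and smaller falls were called for Nfkbie, Nfkb2, Rel, Relb and Bcl3. Averaged over the 3 genotypes, 8 of the 9 measured members were called lower and 0 higher: 5 of 5 IκB and A20 genes and 3 of 4 subunit genes. Among all tested probe sets, 15.5% were called lower and 18.2% higher in this comparison. The median log2 difference was -0.37 over the members and -0.02 over all tested probe sets. A call here is an adjusted p under 0.05 from limma, a linear model fitted across all probe sets, with Benjamini-Hochberg adjustment, and every adjusted p below is of this kind.

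Nfkbia, the gene of IκBα, read 9.64, 9.79 and 9.71 on the WT-Ctrl arrays, 9.51, 9.66 and 9.42 on the Het-Ctrl arrays, and 10.07 and 9.12 on the Hom-Ctrl arrays. With NMyc it read 8.25 and 8.50 in WT, 8.32 and 8.39 in Het, and 7.93 and 8.26 in Hom. Every NMyc array lay below every Ctrl array, and the Hom-Ctrl pair held both the highest and the lowest Ctrl value. The averaged difference was -1.34 ± 0.13 (SE; n = 6 NMyc against 8 Ctrl arrays), 2.53-fold lower, with an adjusted p of 6.50e-07.

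Tnfaip3, the gene of A20, read 8.75, 8.51 and 8.09 on the WT-Ctrl arrays, 8.64, 8.18 and 8.05 on the Het-Ctrl arrays, and 8.94 and 8.08 on the Hom-Ctrl arrays. With NMyc it read 6.66 and 6.57 in WT, 6.67 and 6.56 in Het, and 6.62 and 7.18 in Hom. The vectors did not overlap, and Hom-NMyc replicate 2 was the highest of the NMyc arrays. The averaged difference was -1.71 ± 0.15 (SE), 3.26-fold lower (adjusted p = 3.68e-07).

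Nfkbiz, the gene of nuclear IκBζ, had the largest difference of the 9 members. It read 8.45, 8.46 and 8.34 on the WT-Ctrl arrays, 8.39, 8.01 and 7.75 on the Het-Ctrl arrays, and 8.44 and 7.35 on the Hom-Ctrl arrays. With NMyc it read 6.35 and 6.25 in WT, 6.75 and 5.97 in Het, and 5.99 and 6.52 in Hom. Again no NMyc array reached a Ctrl array; the nearest Ctrl value was Hom-Ctrl replicate 2. The averaged difference was -1.81 ± 0.17 (SE), 3.52-fold lower (adjusted p = 5.72e-07).

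Nfkbie, the gene of IκBε, spanned 6.63 to 7.09 on the 8 Ctrl arrays (median 6.87) and 5.90 to 6.58 on the 6 NMyc arrays (median 6.41). The vectors did not overlap, although the lowest WT-Ctrl array and the highest Hom-NMyc array were close. The averaged difference was -0.53 ± 0.09 (SE), 1.44-fold lower (adjusted p = 2.98e-04). Bcl3 spanned 7.90 to 8.34 (median 8.14) with Ctrl and 7.67 to 8.06 (median 7.82) with NMyc, and the vectors overlapped. Its averaged difference was -0.28 ± 0.09 (SE; adjusted p = 0.0241). The Bcl3 call was lost without Het-NMyc replicate 1 (adjusted p = 0.073), Hom-Ctrl replicate 2 (0.0687), Hom-NMyc replicate 1 (0.0946) or WT-NMyc replicate 2 (0.0673), and with each array centred on its median (-0.24, 0.0665).

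Among the subunit genes, Rela, whose protein forms the most common NF-κB dimer with the product of Nfkb1, was the member with no call. It read 10.50, 10.51 and 10.74 on the WT-Ctrl arrays, 10.37, 10.42 and 10.77 on the Het-Ctrl arrays, and 10.29 and 10.51 on the Hom-Ctrl arrays. With NMyc it read 10.19 and 10.46 in WT, 10.50 and 10.47 in Het, and 10.52 and 10.55 in Hom. The vectors overlapped. The averaged difference was -0.05 ± 0.10 (SE; adjusted p = 0.738), with a 95% interval from -0.25 to 0.15.

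Rel encodes c-Rel, a subunit found mainly in blood cells. It spanned 8.58 to 9.28 on the Ctrl arrays (median 8.79) and 8.34 to 8.58 on the NMyc arrays (median 8.52), so that the vectors met at 8.58 without overlapping. Its averaged difference was -0.37 ± 0.11 (SE; adjusted p = 0.0132). Nfkb2, whose product is processed into a subunit of the non-canonical pathway, spanned 7.37 to 7.94 with Ctrl and 7.19 to 7.44 with NMyc and overlapped, with a difference of -0.35 ± 0.10 (SE; adjusted p = 0.0103). Relb encodes the partner of that subunit. It spanned 6.25 to 6.96 with Ctrl and 5.91 to 6.44 with NMyc and overlapped, with a difference of -0.36 ± 0.11 (SE; adjusted p = 0.0213).

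The Relb call rested on single arrays. It was lost without Hom-Ctrl replicate 1 (-0.24, adjusted p = 0.0836), Het-NMyc replicate 1 (0.0723), Hom-NMyc replicate 1 (0.0616) or WT-NMyc replicate 2 (0.0844). Without Hom-Ctrl replicate 1 the members called numbered 7 of 9. Nfkbia, Nfkbiz, Tnfaip3 and Rel kept their calls for the average in each of the 25 alternatives run, and Nfkbie in each of the 24 that could read it. Among these, the changed probe set rule could alter no call, as each member had 1 probe set.

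**Figure D1:**
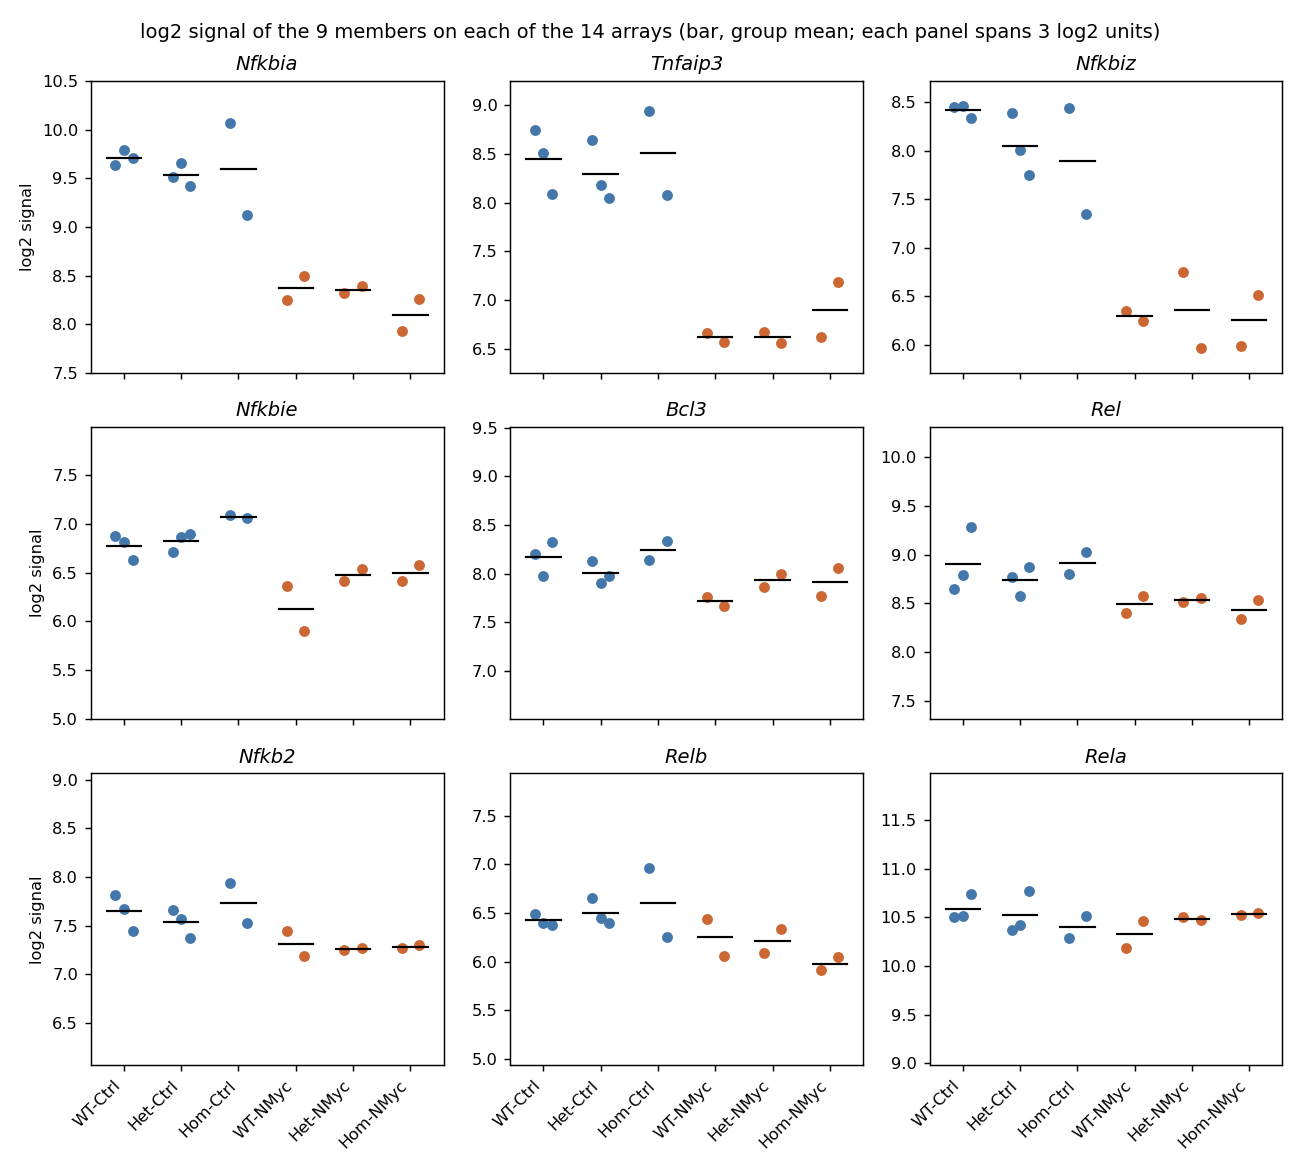
Each panel plots the log2 signal of 1 member (vertical axis, 3 log2 units in every panel) on the 14 arrays by group; blue points are Ctrl arrays, orange points NMyc arrays, and bars group means. Nfkbia, Tnfaip3 and Nfkbiz drop in every genotype, Rela lies between 10.19 and 10.77, and the Hom-Ctrl pair is far apart for Nfkbia and Nfkbiz.

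Within single genotypes, Nfkbia, Nfkbiz and Tnfaip3 were called lower each time. In WT cells 4 of 9 members were called lower and 0 higher, where 9.05% of all tested probe sets were called lower and 10.1% higher. Nfkbiz differed by -2.12 ± 0.29 (SE), Tnfaip3 by -1.84 ± 0.26, Nfkbia by -1.34 ± 0.21 and Nfkbie by -0.65 ± 0.16 (n = 2 NMyc against 3 Ctrl arrays; adjusted p = 9.36e-05, 1.24e-04, 3.65e-04 and 0.00744). The Nfkbie call was lost without WT-NMyc replicate 2 (-0.42, adjusted p = 0.188). Bcl3 missed the threshold at -0.45 (adjusted p = 0.051) and passed it without WT-Ctrl replicate 2 (0.0272).

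In Het cells 3 of 9 members were called lower and 0 higher, where 8% of all tested probe sets were called lower and 11.1% higher. Nfkbiz differed by -1.69 ± 0.29 (SE), Tnfaip3 by -1.67 ± 0.26 and Nfkbia by -1.17 ± 0.21 (n = 2 against 3; adjusted p = 5.98e-04, 2.64e-04 and 0.00104). The other 6 members lay between -0.35 (Nfkbie, adjusted p = 0.143) and -0.03 (Rela, 0.935).

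In Hom cells 4 of 9 members were called lower and 0 higher, where 7.01% of all tested probe sets were called lower and 10.7% higher. Nfkbiz differed by -1.64 ± 0.32 (SE), Tnfaip3 by -1.61 ± 0.28, Nfkbia by -1.50 ± 0.24 and Nfkbie by -0.58 ± 0.17 (n = 2 against 2; adjusted p = 0.00189, 0.00101, 4.37e-04 and 0.0287). Without Hom-Ctrl replicate 1 the differences were -1.10 for Nfkbiz, -1.18 for Tnfaip3 and -1.02 for Nfkbia, each still called (adjusted p = 0.0365, 0.021 and 0.00521). Without Hom-Ctrl replicate 2 they were -2.18, -2.04 and -1.98, and Relb (-0.98, adjusted p = 0.00586) and Nfkb2 (-0.65, 0.0473) were called as well. The Nfkbie call in Hom was lost without any 1 of the 4 arrays of that comparison (adjusted p = 0.0776 to 0.188).

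**Figure D2:**
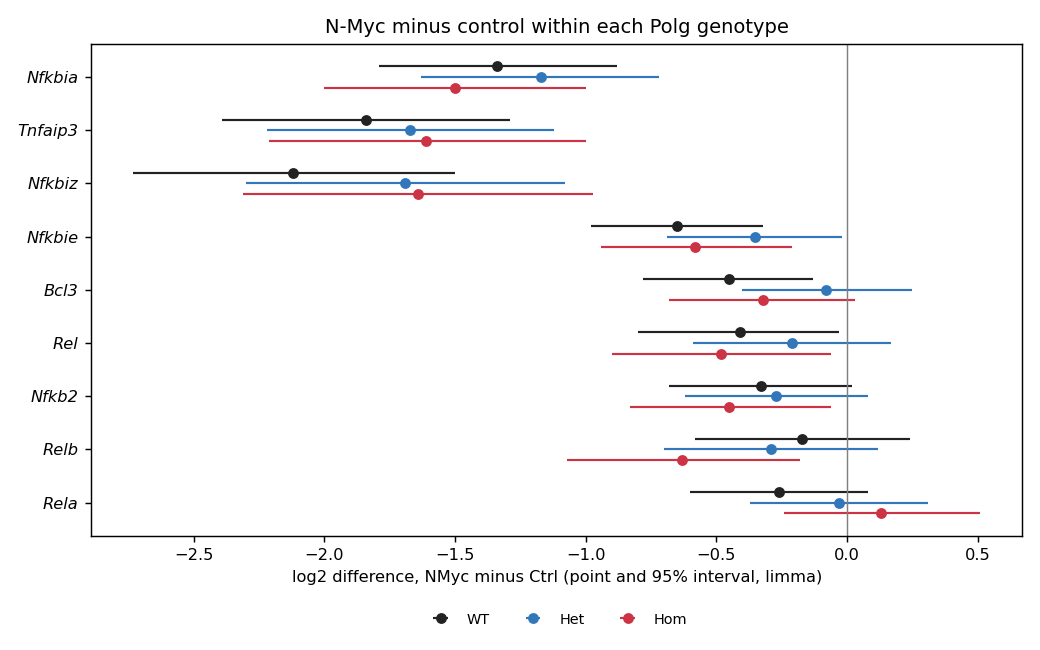
The horizontal axis is the log2 difference, NMyc minus Ctrl, with its 95% interval from limma, for each member (rows) in WT (black), Het (blue) and Hom (red) cells. Nfkbia, Tnfaip3 and Nfkbiz lie between -2.12 and -1.17 in all 3 genotypes, and the remaining members between -0.65 and 0.13.

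Whether the response to N-Myc depended on the Polg genotype was tested as a difference of effects. For Het minus WT 0 of 9 members were called (background 0%), for Hom minus WT 0 of 9 (background 0.0811%, 18 probe sets) and for Hom minus Het 0 of 9 (background 0.0315%, 7 probe sets). At an unadjusted p under 0.05 limma counted 0 members in each of the 3. The intervals were wide: Nfkbiz differed between Hom and WT by 0.48, with a 95% interval from -0.43 to 1.39, and Nfkbia by -0.16, from -0.84 to 0.51. Both turned on the Hom-Ctrl pair: without its replicate 1 they were 1.02 for Nfkbiz and 0.31 for Nfkbia, and without its replicate 2 they were -0.06 and -0.64. Relb differed by -0.46 (from -1.06 to 0.15; adjusted p = 0.698), by -0.10 without Hom-Ctrl replicate 1 and by -0.81 without replicate 2. Rela differed by -0.26 in WT and by 0.13 in Hom, and neither was called (limma adjusted p = 0.324 and 0.68). The difference of 0.39 between those effects did not pass (from -0.11 to 0.90; adjusted p = 0.685) and was 0.28 without Hom-Ctrl replicate 1.

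The Polg genotype itself was compared within each vector, and 0 of 9 members were called in any of the 6 comparisons. With Ctrl, the background was 0% for Het minus WT, 3.91% for Hom minus WT and 2.4% for Hom minus Het. With NMyc it was 0% for Het minus WT, 0% for Hom minus WT and 0% for Hom minus Het. At an unadjusted p under 0.05 limma counted 0 members in 5 of the 6 and 1 member, Nfkbie, in Hom minus WT with NMyc (unadjusted p = 0.0468). Over all tested probe sets those unadjusted counts were 935, 3774 and 3310 with Ctrl and 576, 1873 and 1093 with NMyc, in the same order. With a trended and robust prior the calls over all tested probe sets were 0, 1236 and 884 with Ctrl and 0, 1 and 0 with NMyc, and 0 members were among them.

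Nfkbie, which was below the 95th percentile of the negative controls on all 14 arrays, was the member whose Hom arrays lay apart from the WT arrays with both vectors. In groups of 2 and 3 arrays such a separation alone shows little. With Ctrl its mean was 7.07 ± 0.03 in Hom (SD, n = 2) and 6.77 ± 0.13 in WT (SD, n = 3), a difference of 0.30 (95% interval -0.03 to 0.63; adjusted p = 0.361). With NMyc the difference was 0.37 (0.01 to 0.74; adjusted p = 0.582). Neither passed the test. For Nfkbiz the difference between Hom and WT with Ctrl was -0.52 (-1.14 to 0.09; adjusted p = 0.39), and it was -1.07 without Hom-Ctrl replicate 1 and 0.02 without Hom-Ctrl replicate 2. For Nfkbia it was -0.12 (-0.57 to 0.34) and for Tnfaip3 0.06 (-0.49 to 0.61). Without Hom-Ctrl replicate 1 these were -0.59 and -0.37, and without replicate 2 they were 0.36 and 0.49, so the sign of each rested on the array left out. For Nfkbie the difference was 0.28 without replicate 1 and 0.32 without replicate 2. A p that misses the threshold does not show that the genotypes were alike.

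**Figure D3:**
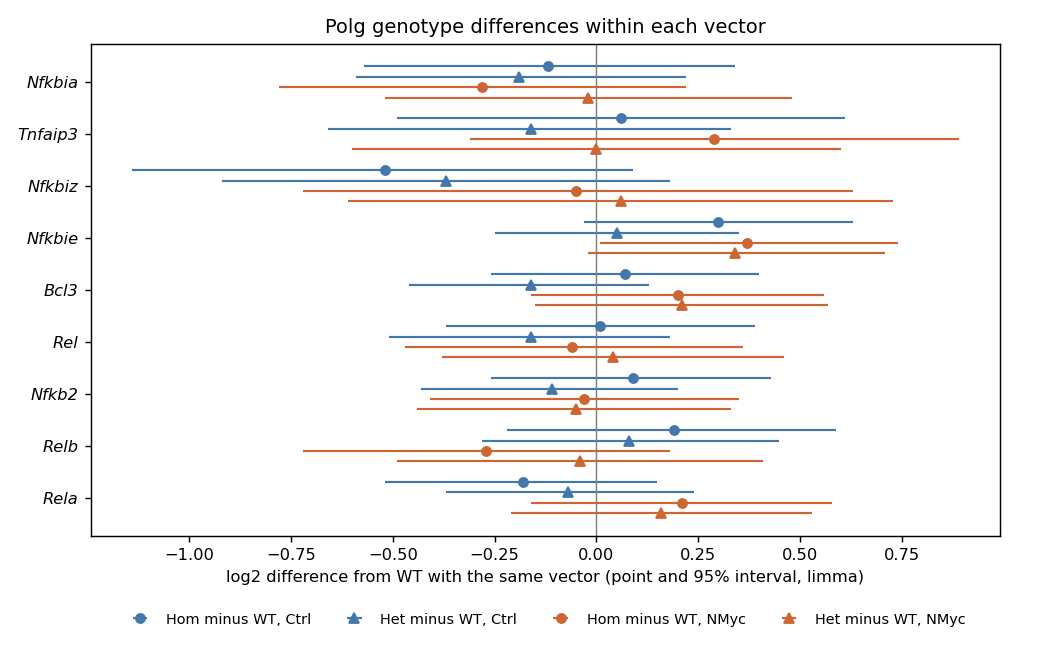
The horizontal axis is the log2 difference from WT cells with the same vector, with its 95% interval from limma, for each member (rows); circles are Hom minus WT, triangles Het minus WT, blue is Ctrl and orange NMyc. All intervals include 0 except that of Nfkbie in Hom minus WT with NMyc (0.01 to 0.74), which did not pass after adjustment.

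The Hom-Ctrl pair differed most in the members that fell most with N-Myc. Replicate 1, the array with the raised Mycn, was higher than replicate 2 by 1.08 in Nfkbiz, 0.95 in Nfkbia, 0.86 in Tnfaip3 and 0.71 in Relb. For Nfkbiz, Nfkbia and Tnfaip3 the array with more Mycn had the higher value of the pair, and the NMyc arrays lay below all Ctrl arrays. Replicate 1 was also the pair's array in run 1 of the sample codes, described below. In this pair Mycn and run cannot be told apart, and neither was tested as a cause. Bcl3 was lower on replicate 1 (8.14 against 8.34), and Nfkbie read nearly alike on both (7.09 and 7.06). Of the 9 members 3 differed by more than 0.8 between these 2 arrays, against 2.9% of all tested probe sets. The cut of 0.8 was not part of the planned analysis and lies between the values of Relb and Tnfaip3. These shares are thus a description and not a test.

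The sample codes in the labels fall into 3 runs, which the labels do not call batches. Run 1 holds replicate 1 of each Ctrl group and no NMyc array, and runs 2 and 3 hold both vectors. Tnfaip3, Nfkb2 and Relb were highest on the run 1 array among the Ctrl arrays of each genotype. For Tnfaip3 its excess over the mean of the other Ctrl arrays was 0.45 (WT), 0.53 (Het) and 0.86 (Hom). Within runs and genotypes there were 5 differences of 1 NMyc array from 1 Ctrl array. They ran from -2.11 to -1.26 for Nfkbiz, from -1.85 to -1.46 for Tnfaip3, from -1.54 to -1.03 for Nfkbia and from -0.73 to -0.36 for Nfkbie. They ran from -0.70 to -0.07 for Rel and from -0.32 to -0.10 for Nfkb2. Relb (-0.37 to 0.05), Bcl3 (-0.66 to 0.02) and Rela (-0.32 to 0.08) had within-run differences on both sides of 0. With run 1 left out, 5 of 9 members were called for the average, and Relb (-0.21, adjusted p = 0.161), Nfkb2 (-0.23, 0.0941) and Bcl3 (-0.29, 0.0536) were not. With the run as a fixed block, Relb (-0.25, adjusted p = 0.134) and Nfkb2 (-0.23, 0.0695) were not called either.

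Of the other genes of the pathway, the target genes had the lowest median difference with N-Myc. Of 33 measured textbook target genes of NF-κB, 25 were called lower and 1 higher for the average, with a median of -0.84. Il1rn, the interleukin-1 receptor antagonist, differed by -2.69 ± 0.21 (SE), Il1b, the inflammatory cytokine interleukin-1β, by -2.63 ± 0.19, and the cytokine Il6 by -2.51 ± 0.13 (limma adjusted p = 1.03e-07, 4.12e-08 and 2.69e-09). Sod2, the mitochondrial superoxide dismutase, was the target called higher, at 0.81 ± 0.10. By genotype, 22 targets were called lower and 1 higher in WT, 20 and 1 in Het, and 19 and 0 in Hom. Leaving out Hom-Ctrl replicate 1 brought the count in Hom to 11, and leaving out Hom-NMyc replicate 1 brought it to 12.

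The receptors that feed the pathway were called lower for 10 of 20 and higher for 1, with a median of -0.38. Il18r1, the interleukin-18 receptor, differed by -1.97 ± 0.17 (SE), Cd14, a co-receptor for bacterial lipopolysaccharide, by -1.85 ± 0.27, and Tlr2, a sensor of bacterial lipoproteins, by -1.58 ± 0.15. Ltbr, the lymphotoxin β receptor, was higher by 0.35 ± 0.09. Of the kinases and adaptors, 7 of 20 were called lower and 2 higher, with a median of -0.12. Irak2, a kinase of Toll-like receptor signalling, differed by -1.26 ± 0.08, the ubiquitin ligase Birc2 by -0.95 ± 0.12, and Map3k14, the kinase of the non-canonical pathway, by -0.75 ± 0.10. Myd88, the adaptor of Toll-like receptors, was higher by 0.55 ± 0.13 and Map3k7, the kinase TAK1, by 0.38 ± 0.08.

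Of the other inhibitors of the pathway, 8 of 19 were called lower and 3 higher, with a median of -0.17. Rnf11 differed by -0.69 ± 0.10 (SE), the ribonuclease gene Zc3h12a by -0.60 ± 0.13 and the deubiquitinase gene Cyld by -0.47 ± 0.13. Nfkbib, which encodes IκBβ, rose by 0.45 ± 0.09, Otulin, a deubiquitinase of linear chains, by 0.82 ± 0.12, and Sharpin by 0.35 ± 0.09. Sharpin is a subunit of the ligase that makes those chains, which is known to promote NF-κB signalling. The calls of Cyld (adjusted p = 0.0877) and Sharpin (0.06) were lost with the run as a fixed block. So the genes of 2 classical IκB proteins, Nfkbia and Nfkbie, were called lower while that of IκBβ was called higher. In RefSeq promoters, κB matches lay before 8 of 27 target genes, 3 of 17 receptor genes, 4 of 21 kinase and adaptor genes and 4 of 14 other inhibitor genes. A gene was counted if any of its windows held a match, so these counts cannot be set against the 7.25% of single windows.

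**Figure D4:**
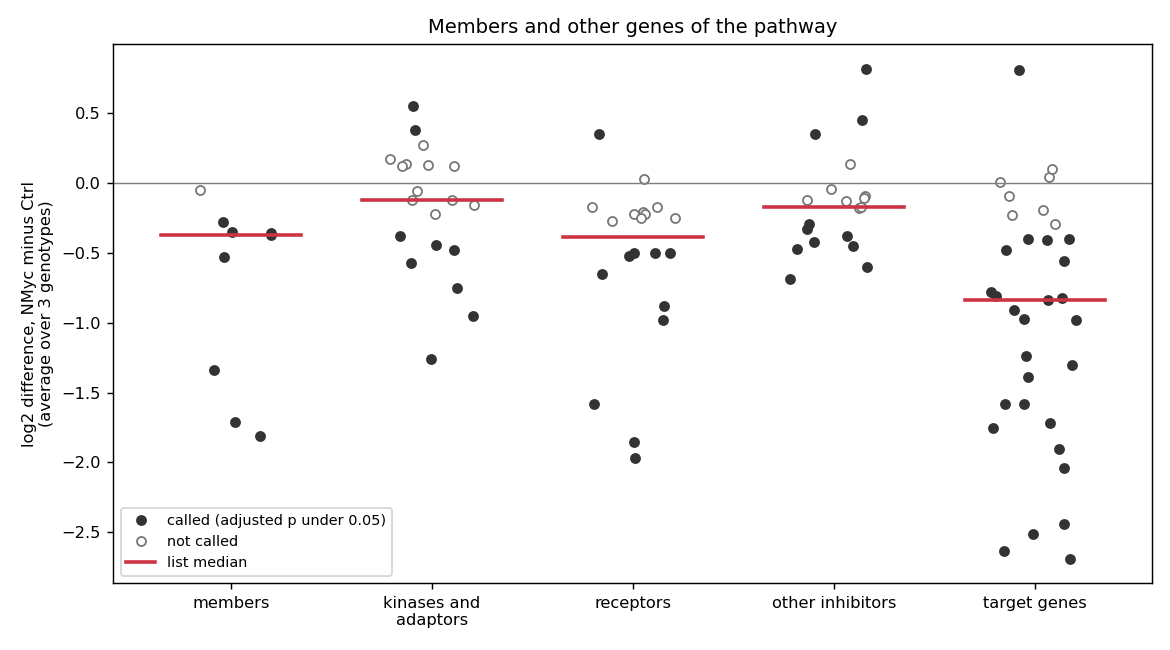
Each point is 1 gene and the vertical axis its log2 difference, NMyc minus Ctrl, averaged over the 3 genotypes; filled points were called, open points were not, and red bars are list medians. Medians are -0.37 for the members, -0.12 for kinases and adaptors, -0.38 for receptors, -0.17 for other inhibitors and -0.84 for target genes.

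Without N-Myc, some of these genes differed between Hom and WT although no member was called. In Ctrl cells 2 of 33 targets were called higher in Hom and 3 lower, and 2 of 20 receptors lower, where 3.91% of all tested probe sets were called in either direction. None of the measured kinases, adaptors and other inhibitors was called. Il1b was higher by 1.25 ± 0.32 (SE; limma adjusted p = 0.0398) and Il1a by 1.31 ± 0.28 (adjusted p = 0.0194). The WT-Ctrl arrays of Il1a all read at or below the negative controls' median, and its Hom-Ctrl mean (5.63) was below their 95th percentile. With its WT-Ctrl arrays set to the negative controls' median the Il1a difference was 0.96, so its size is uncertain. Bcl2a1b, a survival gene of the BCL2 family with near-identical copies that the probe set may also read, differed by -1.58 ± 0.20 (adjusted p = 8.46e-04). Il1rn differed by -1.36, the chemokine Ccl2 by -1.14, and the receptors Tlr4 by -0.94 and Nod1 by -0.92 (adjusted p = 0.0462, 0.0346, 0.0088 and 0.0138). Cell-type markers differed in the same comparison: 3 of 12 neutrophil markers (Ltf, Mmp8 and Retnlg), 1 of 10 monocyte and macrophage markers (Fcgr1) and 1 of 6 eosinophil markers (Siglecf) were called lower in Hom, and 2 of 10 mast cell and basophil markers (Ms4a2 and Fcer1a) and 1 of 9 stem and progenitor markers (Gata2) higher. Summed neutrophil markers were 47959 to 48943 in Hom-Ctrl and 57553 to 61695 in WT-Ctrl, summed monocyte and macrophage markers 14425 to 18975 and 17733 to 21539, and summed mast cell and basophil markers 34196 to 38842 and 26544 to 32213. Their part in these differences was not tested. Bcl2a1b kept its call in all 25 alternatives. Without Hom-Ctrl replicate 1, Il1a (0.79, adjusted p = 0.188) and Il1b (0.72, 0.33) were not called. Without Hom-Ctrl replicate 2, Tlr4 (-0.85, 0.117), Nod1 (-0.62, 0.207), Il1rn (-0.59, 0.477) and Ccl2 (-0.42, 0.376) were not. Single WT-Ctrl arrays also ended the calls of Nod1 (replicate 3), Ccl2 and Il1b (replicates 1 and 3) and Il1rn (replicates 1, 2 and 3). Il1b was lost too without any 1 of the WT-NMyc or Hom-NMyc arrays, and Il1rn without Het-Ctrl replicate 1 or any 1 of the WT-NMyc or Het-NMyc arrays.

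Markers of other cell types moved with N-Myc alongside the members. In these bulk cultures, fewer cells of a type and less RNA per cell cannot be told apart. Of 10 measured monocyte and macrophage markers 9 were called lower, and their summed linear level was 14425 to 21803 on the Ctrl arrays and 7223 to 8271 on the NMyc arrays. Of 12 neutrophil markers 10 were called lower and 2 higher (47959 to 62354 with Ctrl and 40831 to 44628 with NMyc). All 7 measured megakaryocyte markers were called lower (4841 to 7388 and 1336 to 1458). No marker of these 3 lists was at or below the negative controls' median throughout the arrays of a vector. Of 10 mast cell and basophil markers 8 were called lower and 1 higher, and of 6 eosinophil markers 4 were called lower. Of 9 stem and progenitor markers 3 were called lower, and all 9 together summed to 7090 to 9154 with Ctrl and 6036 to 7669 with NMyc. As a check of the label, 4 of the 9 stem and progenitor markers were above the 95th percentile of the negative controls on every Ctrl array and 4 on every NMyc array, as were 12 and 10 of the 12 neutrophil markers. The part of these cell types in the fall of the members was not tested.

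By the fixed rule, the 2 genes whose pattern over the 14 arrays was most like each member's were listed as a description. The values were not adjusted for the vector, so 2 genes that both differ between the vectors correlate for that reason too. The share of the vector in each correlation was not tested. Nfkbiz was most like Gpnmb, a glycoprotein of macrophages (Pearson r = 0.983), and Fam20c, a secretory-pathway kinase (0.974). Tnfaip3 was most like Clec4n, a C-type lectin receptor of myeloid cells (0.983), and Rgs1 (0.982). Nfkbia was most like Psap, a lysosomal protein precursor (0.977), and Gpnmb (0.974). Nfkb2 was most like Slamf7 (0.954) and Atp6v0d2 (0.943), and Relb like Pkn3 (0.933) and Spint4 (0.891). Nfkbie was most like C1qtnf6 (0.926) and Cttn (0.925), Rel like Slc24a5 (0.934) and Rbm47 (0.917), and Bcl3 like Sgpl1 (0.905) and Cd59b (0.899). Rela, which did not separate by vector, was most like Ccdc130 (0.905) and Mapk4 (0.869).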

How the data were processed

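The deposited table gives a log2 value for each probe set on each array. Per the submitters' processing notes the authors used Affymetrix Expression Console; its version, and how values were summarised and normalized, is not given in the sources used here. RNA was hybridised to Affymetrix whole-transcript arrays, per the labels' protocols. Of 28846 probe sets, 6640 array controls were left out and 22206 tested. Groups came from the labels. Where the values had been scaled before deposit, a shift shared by most transcripts could have been removed.

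All 14 arrays entered 1 linear model of 6 group means, fitted with limma 3.58.1 (lmFit and eBayes, R 4.3.3). The same code was also run on simulated data, for the averaged N-Myc effect only. In each of 13 comparisons p-values were adjusted over all tested probe sets. The labels call the arrays biological replicates without naming animals, so the p-values cover only the spread among these arrays. Same-numbered WT-Ctrl and Het-Ctrl arrays deviated together (r = 0.24 to 0.27). Their numbers coincide with the runs of sample codes, so a pairing and a run cannot be told apart.

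All members are named. From each list of other pathway genes, up to 3 called rises and 3 called falls of largest size are named (averaged N-Myc effect, Hom minus WT with Ctrl, differences of effects), with the 2 genes most correlated with each member. The members and lists were chosen with earlier results of these data known. There were 25 alternatives: 14 leave out 1 array each and 11 change the normalization, filters, prior, blocks, arrays, groups or probe set rule. The probe set rule took the mean of all probe sets of a member's symbol. Each member had 1, so this alternative repeats the main fit.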

Additional observations from a re-analysis of the deposited data

Results flagged for a closer look

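Bcl2a1b, a BCL2-family survival gene on the list of textbook targets, was the gene among the members and pathway lists whose N-Myc effect differed between Hom and WT cells by a test of the difference itself: the effect in Hom minus that in WT was 1.88 ± 0.29 on the log2 scale (SE; limma adjusted p = 0.0251). Its group means were 8.43 in WT-Ctrl, 6.85 in Hom-Ctrl, 5.60 in WT-NMyc and 5.91 in Hom-NMyc, so the groups differed before N-Myc. All of these but the WT-Ctrl mean were below the 95th percentile of the negative controls (7.15 to 8.0). The part of readings this close to background in the difference was not tested. Single markers of other cell types were called in the same direction. These were Ltf, from the list of 12 neutrophil markers, at 1.53 (adjusted p = 0.0318) and Siglecf, from the list of 6 eosinophil markers, at 1.72 (0.0147). In Hom minus WT with Ctrl these lists were mixed. Ltf was at -1.42 and Siglecf at -1.05, but the neutrophil gene Mpo was at 0.01 and the eosinophil gene Epx at 0.78. The part of these cell types in the Bcl2a1b difference was not tested. The difference was between 1.58 and 2.29 in the 25 alternatives, and 2.19 without Hom-Ctrl replicate 1. It was not called in 9 of them, 7 of which leave out 1 array: WT-Ctrl replicate 2 or 3, Hom-Ctrl replicate 2, or any 1 of the WT-NMyc or Hom-NMyc arrays (adjusted p = 0.0548 to 0.203). Near-identical copies of this gene may share its probe set. Samples far from the rest of a group could not be tested in groups of 2 and 3.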

How the results depend on the processing

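The count of members called for the average was 8 of 9 and fell to 5 with code runs 2 and 3 only; leaving out 1 array gave 6 to 8. The counts within WT (4), Het (3) and Hom (4) stayed within 1.5 times of the main count, and the genotype comparisons and differences of effects kept 0 members called in all 25 alternatives. Among the member differences that the text names, those that changed sign were uncalled in every setting: Rela for the average (0.02 with the replicate block), Rela in Het (0.01 with array medians centred, 0.07 with the replicate block, and -0.11 to 0.09 with 1 array left out, the highest without Het-Ctrl replicate 3), Rela in Hom (-0.01 with code run as a fixed block), Relb in WT (-0.36 to 0.02, the highest without WT-NMyc replicate 2), and Nfkbiz in Hom minus WT with Ctrl (-1.07 to 0.02) and in its difference of effects (-0.06 to 1.02), both turned without Hom-Ctrl replicate 2. Nfkbia in Hom minus WT with Ctrl ran from -0.59 to 0.36 with 1 array left out and its difference of effects from -0.64 to 0.31 (0.35 with code runs 2 and 3 only). Tnfaip3 in Hom minus WT with Ctrl ran from -0.37 to 0.49 (-0.09 with the replicate block, -0.04 with code run as a fixed block, -0.22 with code runs 2 and 3 only). Other members turned in those 2 comparisons too, with 0 calls. The cause was not tested. The filter on dim probe sets removed Relb and Nfkbie, which have no value there.

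Over 31 same-numbered pairs of arrays, deviations from group means correlated at -0.13 to 0.27, over 0.1 in 7, so the numbers are not shown to pair the NMyc with the Ctrl arrays. With the replicate block 7 members were called for the average, Bcl3 being lost (adjusted p = 0.0573), and Relb passed in Hom (0.0498); it changed no other call of a member.

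Counts of other genes were less stable. Targets called in Hom minus WT with Ctrl numbered 5 and ran from 1 to 9, receptors there 2 and from 0 to 5, and receptors for the average 11 and 6 without dim probe sets. Over all tested probe sets, calls in WT (4250), Het (4232) and Hom (3924) were fewest without a single NMyc array of the genotype (2380, 2490 and 1987). Calls in Hom minus WT (868) and Hom minus Het (533) with Ctrl were 99 and 55 without Hom-Ctrl replicate 2, and the differences of effects (18 and 7) ran from 0 to 62 and from 0 to 20. Median centring moved the median of all probe sets by under 0.1.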
